A study of Mus musculus with 7 samples.

Results

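The alternative (M2) activation markers are 10 mouse genes that were taken by symbol from both expression tables of the study: Arg1, Chil3, Clec10a, Mgl2, Folr2, Mrc1, Il4ra, Pparg, Tgm2 and Retnla. All 10 were present once in the table of LPS-stimulated macrophages, among 48440 genes, and once in the table of transduced macrophages, among 55352 genes. A filter on low values, a mean of at least 1 over the samples of a table, was passed by 9 of the 10 in the first table and by 8 in the second. Retnla passed in neither, and Mgl2 did not pass in the second.

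All cells were bone-marrow-derived macrophages (BMDMs), which are grown from wild-type C57BL/6 mouse marrow in macrophage colony-stimulating factor (M-CSF) at 20 ng per mL. Differentiation took 7 days, and the mice were 6 to 12 weeks old and of both sexes per the general methods, while the labels give no age for these samples. In the first experiment BMDMs were left without treatment (0 h) or received 100 ng per mL of LPS, the endotoxin of Gram-negative bacteria, for 2 h or 4 h. Each time had 1 library. In the second, BMDMs were infected for 48 h with AAV1, an adeno-associated virus (AAV), bearing the Shisa3 gene or the gene of green fluorescent protein (GFP) in the controls, both driven by the CAG promoter. Each of these groups had 2 samples. No sample received IL-4, the cytokine that induces M2 markers. The labels do not say whether the 2 samples of a group came from separate cultures or animals, so p-values measure only the spread between these samples.

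Macrophages turn toward the M2 state when IL-4 or IL-13 binds a receptor that contains the IL-4 receptor alpha chain, encoded by Il4ra. The receptor activates JAK kinases and the transcription factor STAT6, and STAT6 acts together with the nuclear receptor PPARγ (Pparg) on genes for arginase 1 (Arg1), chitinase-like lectins (Chil3), resistin-like proteins (Retnla) and lectin receptors (Mrc1, Clec10a, Mgl2). LPS drives the opposite, classical (M1) state, and several genes that carry the M2 name also respond to inflammatory signals.

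Reads recovered from the LPS table summed to between 7263258 (2 h) and 32659392 (4 h) per library. The AAV table holds TPM, a level per transcript length that is scaled to 1 total in all samples and keeps no record of depth. The macrophage genes Adgre1 (F4/80) and Csf1r, the M-CSF receptor, were at 2538 to 2920 and 1499 to 1975 TPM in the 4 transduced samples, and at 26831 and 72358 reads in unstimulated BMDMs. Of the T, B and NK cell markers Cd3e, Cd3d, Cd2 and Ncr1 were at 0 in all 4 transduced samples. The transduced gene, Shisa3, was at 12.31 and 17.81 TPM in cells with AAV-Shisa3, against 7.88 and 10.85 TPM in the controls. Its log2 difference of 0.63 did not pass the test (adjusted p = 0.138 from limma), although the samples of the groups did not overlap.

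Positions of the members are those of GENCODE M21 on GRCm38, matched by gene identifier. Clec10a (chromosome 11, 70156197 to 70170834) and Mgl2 (70130329 to 70137550) are neighbours on the plus strand, with 18646 bases between them. Il4ra (125552120 to 125579474, plus strand) and Folr2 (101839988 to 101857194, minus strand) share chromosome 7, and Tgm2 (158116402 to 158146436, minus strand) and Mrc1 (14229392 to 14332057, plus strand) share chromosome 2. Arg1 is on chromosome 10 (24915221 to 24927484), Chil3 on chromosome 3 (106147554 to 106167564), Pparg on chromosome 6 (115360951 to 115490399) and Retnla on chromosome 16 (48842551 to 48844461). Transcripts of Clec10a and Mgl2 had 270 of their windows of 50 bases in common, 8.49% of those of Clec10a and 12.2% of those of Mgl2. Chil3 had 275 windows in common with the related gene Chil4, 16.9% of its own. Reads from such stretches could be assigned to either gene, which makes the values of Clec10a, Mgl2 and Chil3 uncertain to that extent. Chil4 itself was at 0 TPM in the 4 transduced samples and at 0, 0 and 1 read in the LPS libraries.

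RefSeq promoter windows on GRCm38.p6, from 250 bases before the start site to 50 after it, were at hand for 7 of the 10 members. They were searched on both strands for the letters that STAT6 is known to bind, TTCNNNNGAA, for the related TTCNNNGAA of other STAT factors, and for the NF-κB consensus. Each was found in 1 of the 10 windows of these members and in 6.95%, 8.30% and 8.46% of all 32851 windows, so the counts in the members were near the background. The 3 stretches are shown to place the letters in the members that hold them. The stretches are chr16:48842359-48842538 (plus strand) for Retnla, chr3:106167565-106167814 (minus strand) for Chil3, and chr7:125552281-125552310 (plus strand) for Il4ra, where the match covers bases 21 to 30 of the RefSeq transcript. Capitals mark the match, which on Il4ra is on the opposite strand.
Retnla: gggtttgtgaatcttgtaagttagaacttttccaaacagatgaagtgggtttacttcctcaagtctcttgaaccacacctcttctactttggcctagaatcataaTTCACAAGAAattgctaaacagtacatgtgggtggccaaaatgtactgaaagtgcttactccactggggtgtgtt
Chil3: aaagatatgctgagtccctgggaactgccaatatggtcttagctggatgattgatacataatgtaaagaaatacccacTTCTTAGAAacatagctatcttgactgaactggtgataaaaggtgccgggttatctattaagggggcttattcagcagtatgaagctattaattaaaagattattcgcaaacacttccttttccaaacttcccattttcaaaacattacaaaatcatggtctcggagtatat
Il4ra: ccttctcgcaGGAAAGCCCCgcgcggcgcg
A match describes the letters in the window and is not evidence of binding.

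LPS moved the members in different directions. Il4ra was 22.5-fold and Tgm2 19.6-fold higher at 2 h and both remained well above the unstimulated library at 4 h, Clec10a, Mgl2 and Pparg were lower at 4 h, and Chil3, Folr2 and Mrc1 lay within a factor of 2 of the unstimulated library on the authors' scale. Chil3 passed this limit with centring, and Mrc1 at 4 h with equal library totals. Arg1 and Retnla were at or near 0. With 1 library per time there is no test and no replicate spread, and the intervals below cover counting error only. The values are the read counts divided by a factor per library that the authors deposited, called scaled counts here.

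Il4ra, the receptor chain for IL-4 and IL-13, had a scaled count of 2360 at 0 h (3669 reads), 53046 at 2 h (24292 reads) and 49578 at 4 h (91235 reads). This was 22.5-fold higher at 2 h (95% interval 21.7 to 23.3) and 21.01-fold higher at 4 h (20.3 to 21.7). With reads scaled to equal library totals the folds were 14.2 and 11.9. The value at 4 h was 0.935 times that at 2 h.

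Tgm2, which encodes the protein-crosslinking enzyme transglutaminase 2, had a scaled count of 479 at 0 h (745 reads), 9405 at 2 h (4307 reads) and 7603 at 4 h (13992 reads). It was 19.6-fold higher at 2 h (18.2 to 21.2) and 15.9-fold at 4 h (14.7 to 17.1), and 12.4-fold and 8.96-fold with equal library totals. Its highest value was at 2 h, also per transcript length. That of Il4ra was at 2 h on the authors' scale but at 4 h per transcript length (1066 TPM at 2 h and 1086 TPM at 4 h).

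Clec10a (MGL1) and Mgl2 (MGL2) encode lectins that bind galactose-type sugars. Clec10a had a scaled count of 604 at 0 h (939 reads), 576 at 2 h (264 reads) and 169 at 4 h (311 reads). Its value at 4 h was 0.280 times that at 0 h (0.245 to 0.318), with nearly all of the fall after 2 h on the authors' scale. With equal library totals it was 0.603 times the unstimulated level already at 2 h (0.524 to 0.692), and with each library centred on its median it was above it at 2 h (log2 difference 0.25). Mgl2 was much lower, with 39.9 at 0 h (62 reads), 21.8 at 2 h (10 reads) and 13.6 at 4 h (25 reads). Its 4 h value was 0.341 times that at 0 h (0.205 to 0.550), while the interval at 2 h (0.250 to 1.08) took in no change.

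Pparg, the nuclear receptor, went from 271 at 0 h (422 reads) to 205 at 2 h (94 reads) and 78.8 at 4 h (145 reads). The ratio to 0 h was 0.756 at 2 h (0.598 to 0.948) and 0.290 at 4 h (0.239 to 0.351). With equal library totals these ratios were 0.478 and 0.164, so Pparg was lower under both scalings at both times.

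Chil3 (Ym1), a secreted lectin without chitinase activity, had 964 at 0 h (1498 reads), 1732 at 2 h (793 reads) and 1861 at 4 h (3424 reads). The ratio to 0 h was 1.80 at 2 h and 1.93 at 4 h, and 1.14 and 1.09 with equal library totals, while with each library centred on its median Chil3 passed 2-fold at both times. Folr2, the folate receptor beta of tissue-resident macrophages, had 312, 382 and 479 (485, 175 and 882 reads). Its ratio at 4 h was 1.54 on the authors' scale (1.37 to 1.72) and 0.868 with equal library totals (0.776 to 0.972). The log2 difference was 0.62 on the authors' scale, 0.57 with edgeR's TMM factors and 0.99 with centring. Of these scalings, only equal library totals turned its direction. Mrc1, the mannose receptor CD206, had 11369, 12905 and 7910 (17674, 5910 and 14556 reads). It was 1.14 times the unstimulated level at 2 h on the authors' scale and 0.718 times with equal library totals, and at 4 h it was lower under both, at 0.696 and 0.393.

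Arg1, the arginase that competes with nitric oxide synthase for arginine, had 5 reads at 0 h, 0 at 2 h and 2 at 4 h. At this depth no change was detectable: the ratio of 4 h to 0 h was 0.338 with an interval from 0.0322 to 2.06, and no fold is given for 2 h, where the scaled count at 0 h (3.22) lay under what 3 reads were worth at 2 h (6.55). Retnla, the secreted protein RELMα, had 0 reads in all 3 libraries, which allows a level of up to 3 reads among the 15588502, 7263258 and 32659392 of the libraries.

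**Figure D1:**
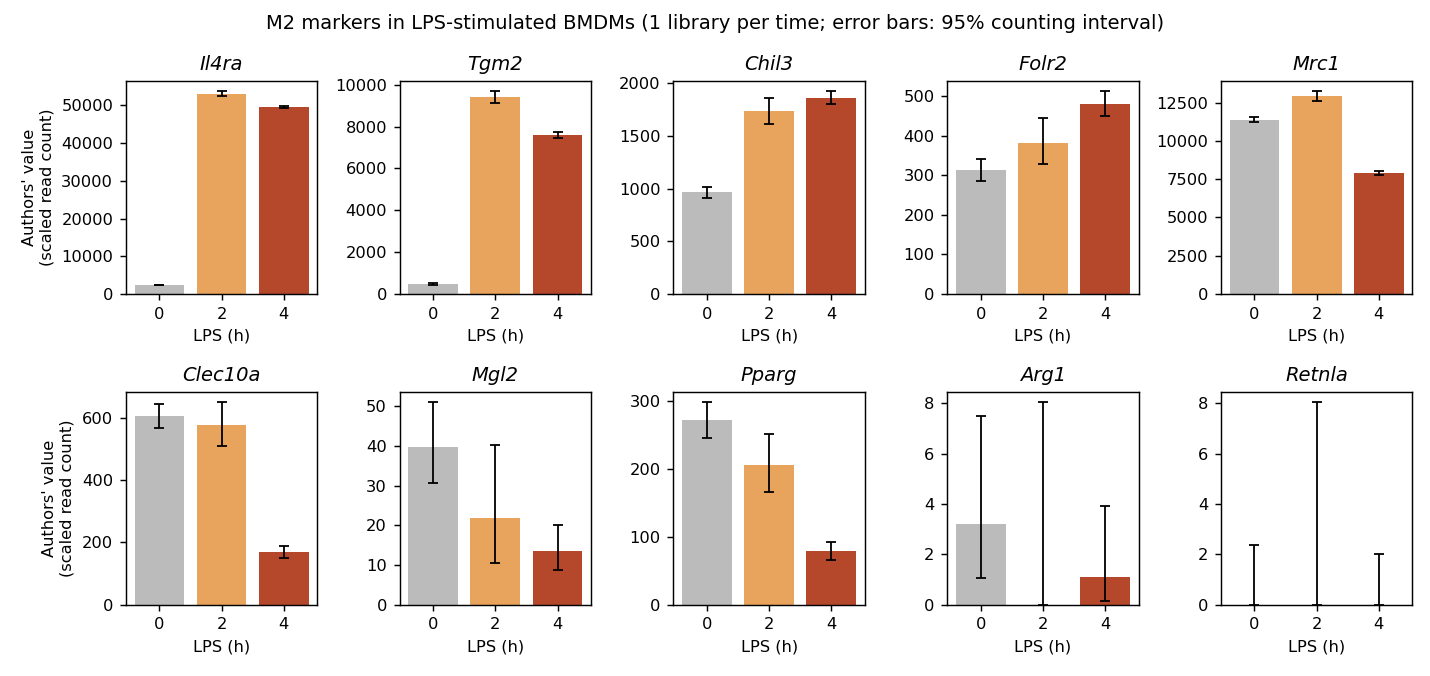
Scaled counts of the 10 M2 markers (linear axis from 0, a scale per gene) in BMDMs at 0, 2 and 4 h of LPS, 1 library per bar, with error bars for the 95% counting interval. Il4ra and Tgm2 rise from 2360 and 479 to 53046 and 9405 at 2 h, Clec10a, Mgl2 and Pparg have their lowest bar at 4 h, and Arg1 and Retnla stand on 5 reads or fewer.

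Changes were read on log2(scaled count + 1), with at least 2-fold as the limit, beside the same count over all 17854 genes that passed the filter. At 2 h, 2 of the 9 members were higher (Il4ra and Tgm2) where 20.5% of all genes were, and 1 was lower (Arg1, on 5 reads against 0) where 24.7% of all genes were. At 4 h, 2 members were higher, against 22.2% of all genes, and 4 were lower (Clec10a, Mgl2, Pparg and, on 2 reads against 5 with an interval that takes in no change, Arg1), against 23.6%. Without Arg1, which drops out with a mean of at least 5 or a pseudocount of 5, 3 were lower at 4 h. The number lower was also 3 with centring, and it was 5 with equal library totals, where Mrc1 joined. Between 2 h and 4 h, Clec10a and Pparg were lower by at least 2-fold, as were 15.2% of all genes, and Arg1 was nominally higher on 2 reads against 0, as were 17.9%. The median log2 difference of the 9 members was 0.18 at 2 h and -0.52 at 4 h, against -0.05 and -0.04 over all genes. At 4 h the members' median turned to 0.05 over the 8 with a mean of at least 5, that is without Arg1, and was -0.15 with centring and -1.35 with equal library totals. It therefore shows no direction of the members as a group. The share of members that were higher was near the background at both times. Equal library totals moved the median of all genes to -0.71 and -0.83 and the calls over all genes from 3668 higher and 4406 lower to 2377 and 7290 at 2 h, and from 3958 and 4207 to 2304 and 7985 at 4 h. Centring moved the median to 0.26 and 0.33 and these calls to 4808 and 3454 at 2 h and to 5285 and 3036 at 4 h. Il4ra and Tgm2 passed 2-fold at both times under every scaling, and Clec10a, Mgl2 and Pparg did so downwards at 4 h. At 2 h Pparg was at -0.09 and Mgl2 at -0.53 with centring.

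In the order of levels per transcript length, computed from the recovered reads and the GENCODE M21 exon length, Mrc1 stood first in unstimulated BMDMs with 396 TPM. Chil3 followed with 131 TPM and Il4ra with 87.2 TPM. Clec10a (46.2 TPM) and Folr2 (44.8 TPM) had overlapping counting intervals, as had Tgm2 (23.1 TPM) and Pparg (20.4 TPM), and Mgl2 (4.22 TPM) and Arg1 (0.320 TPM) came last of those detected. At 4 h Il4ra stood first with 1086 TPM, before Tgm2 with 217 TPM, Mrc1 with 163 TPM and Chil3 with 150 TPM, and Clec10a had gone to 7.66 TPM.

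With AAV-Shisa3 against AAV-GFP, Tgm2, Chil3 and Clec10a were higher and Il4ra was lower. Folr2, Mrc1, Pparg and Arg1 did not pass the test, and neither did Retnla nor Mgl2, which were too low to enter it. The test was limma with a variance trend, fitted to log2(TPM + 1) of 11218 genes, and p-values adjusted after Benjamini and Hochberg were read at 0.05. Of the 8 members tested 3 were higher, where 2.23% of all genes were, and 1 was lower, where 4.1% were. Over all genes 250 were higher and 460 lower, or 410 and 230 with each sample centred on its median log2 value. The median log2 difference of the 8 members was -0.01 and that of all genes tested -0.10. With centring these medians were 0.10 and 0.01. With any 1 sample left out the members' median lay between -0.09 and 0.24, so it shows no direction of the members as a group. None of the member calls held in limma without the trend or with no filter on low values. The lowest adjusted p of limma there, that of Tgm2, was 0.0557 and 0.105. The unadjusted p of limma was under 0.05 for 3 members that rose and 2 that fell in both fits. Over all genes this held for 811 and 2148 of 11218 without the trend, and for 1118 and 2411 of 20300 with no filter. An exact two-sided permutation test of 2 samples against 2 has 0.333 as its smallest p, and what separates genes here is the variance pooled by limma.

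Tgm2 was at 307.35 and 322.19 TPM in cells with AAV-Shisa3, against 113.85 and 114.18 TPM in the controls. The groups lay far apart and the samples within each were close. The means were 315 ± 10.5 TPM with AAV-Shisa3 and 114 ± 0.233 TPM with AAV-GFP (SD, n = 2), a ratio of 2.76. The log2 difference was 1.46 (standard error 0.07, 95% CI 1.28 to 1.63, adjusted p = 0.00962 from limma), with the lowest p of the 11218 genes and place 32 among their rises. It lay between 1.42 and 1.49 with any 1 sample left out. The adjusted p was then 0.144 without AAV-GFP replicate 1 and 0.150 without AAV-GFP replicate 2, past the threshold, and stayed under it, at 0.0345 and 0.0195, without AAV-Shisa3 replicate 1 or 2.

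Chil3 was at 60.51 and 48.10 TPM in cells with AAV-Shisa3, against 31.19 and 30.26 TPM in the controls. The AAV-Shisa3 samples exceeded the controls, replicate 1 by more. The log2 difference was 0.79 (standard error 0.13, 95% CI 0.48 to 1.10, adjusted p = 0.0296 from limma). Chil3 is also made by neutrophils and their precursors. Of 12 listed markers of these cells 10 were tested, 9 of them without overlap and higher with AAV-Shisa3 (18.2% of all genes), and 2 passed the threshold (2.23% of all genes called higher). These were Ngp at 1.02 and Camp at 1.14, both genes of neutrophil granule proteins. The untested Cxcr2, a chemokine receptor of neutrophils, lay below without overlap, at 0.14 and 0.14 TPM against 0.21 and 0.24 TPM in the controls. The summed level of the 12 markers was 1102 and 693 TPM in cells with AAV-Shisa3, against 596 and 571 TPM in the controls, again with replicate 1 the higher. Most of this sum was S100a9 and S100a8, neither of which passed (adjusted p = 0.216 and 0.183 from limma). S100a9 was at 601.62 and 361.40 TPM against 346.89 and 311.64 TPM in the controls. S100a8 was at 290.03 and 185.14 TPM against 165.04 and 165.10 TPM. The defining marker Ly6g was near 0, at 0.10 to 0.29 TPM, and the part of these cells in the Chil3 result was not tested. In bulk samples a change in the number of cells of a type and a change in RNA per cell cannot be told apart.

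Clec10a was at 4.16 and 5.03 TPM in cells with AAV-Shisa3, against 2.20 and 1.73 TPM in the controls, without overlap. Its log2 difference was 0.92 (standard error 0.18, 95% CI 0.47 to 1.36, adjusted p = 0.0443 from limma), close to the threshold. Its neighbour Mgl2 was at 0.90 and 1.55 TPM in AAV-Shisa3 cells against 0.49 and 0.68 TPM in the controls. Its mean of 0.905 TPM was under the filter, and in the fit with no filter its log2 difference of 0.48 had an adjusted p of 0.342 from limma. Dendritic cells also carry these lectins, and of their 8 listed markers 2 were tested and 0 passed, with a summed level of 4.12 and 5.07 TPM in AAV-Shisa3 cells against 4.39 and 5.79 TPM in the controls. Single markers went both ways: without overlap, 3 of the 8 lay above (Itgax, Zbtb46 and Xcr1) and 2 below (Clec9a and Siglech), beside 18.2% and 41.2% of all genes that passed the filter. The markers of eosinophils, basophils and mast cells summed to 17.3 and 19.5 TPM in AAV-Shisa3 cells against 16.1 and 14.1 TPM in the controls. Most of this was Ccr3, whose groups overlapped, at 11.56 and 13.63 TPM against 12.57 and 9.95 TPM. Of these markers 0 of 3 tested passed the threshold. Without overlap 4 of the 10 listed lay above and 0 below, 2 of them among the 3 tested, beside the same 18.2% and 41.2%.

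Il4ra was at 217.52 and 205.01 TPM in cells with AAV-Shisa3, against 268.63 and 280.92 TPM in the controls. Both AAV-Shisa3 samples were below both controls, and the means were 211 ± 8.85 TPM with AAV-Shisa3 and 275 ± 8.69 TPM with AAV-GFP (SD, n = 2). The log2 difference was -0.38 (standard error 0.07, 95% CI -0.56 to -0.20, adjusted p = 0.0431 from limma). After centring each sample it was -0.26 and no longer passed (adjusted p = 0.108 from limma). Centring moved the median of all genes from -0.10 to 0.01. The calls of Chil3, Clec10a and Il4ra were each lost with any of the 4 samples left out. Without AAV-GFP replicate 1 or 2 or AAV-Shisa3 replicate 1 or 2, in that order, the adjusted p was 0.161, 0.194, 0.122 and 0.0708 for Chil3. It was 0.160, 0.211, 0.132 and 0.162 for Clec10a, and 0.173, 0.222, 0.131 and 0.153 for Il4ra. Their directions stayed the same in these fits.

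Folr2 was at 391.28 and 356.83 TPM in cells with AAV-Shisa3, against 475.19 and 439.54 TPM in the controls. The groups did not overlap, but the log2 difference of -0.29 (95% CI -0.49 to -0.09) did not pass the threshold (adjusted p = 0.0942 from limma). Mrc1 was at 71.21 and 56.90 TPM in AAV-Shisa3 cells against 71.25 and 71.55 TPM in the controls. AAV-Shisa3 replicate 1 was level with the controls and replicate 2 was below them, with a log2 difference of -0.16 (-0.46 to 0.13, adjusted p = 0.411). Pparg was at 18.07 and 16.12 TPM in AAV-Shisa3 cells against 18.00 and 17.31 TPM in the controls, with overlapping groups and a difference of -0.05 (-0.31 to 0.22, adjusted p = 0.811). Its interval leaves no room for a 2-fold change on this scale.

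Arg1 was at 12.36 and 28.94 TPM in cells with AAV-Shisa3, against 14.07 and 24.92 TPM in the controls. The larger difference ran between replicate numbers and not between groups, since replicate 2 was 1.77 times replicate 1 with AAV-GFP and 2.34 times with AAV-Shisa3. The log2 difference between groups was 0.02 with an interval from -1.02 to 1.06 (adjusted p = 0.981), so the interval of this fit takes in a 2-fold change in either direction. Retnla was listed at 0 in 3 samples and at 0.23 TPM in AAV-GFP replicate 2.

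**Figure D2:**
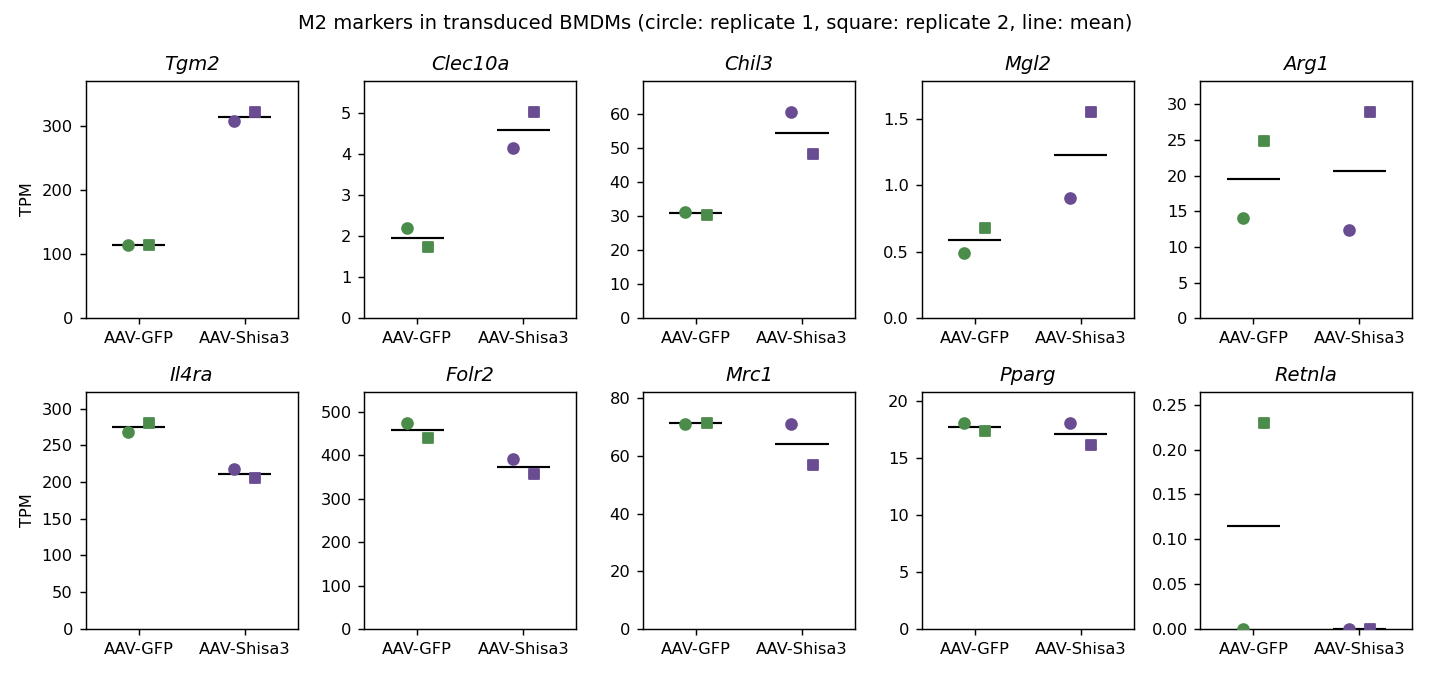
TPM of the 10 M2 markers (linear axis from 0, a scale per gene) in BMDMs with AAV-GFP or AAV-Shisa3, each point 1 sample (circle replicate 1, square replicate 2) and the line the mean of 2. Tgm2, Clec10a, Chil3 and Mgl2 have both AAV-Shisa3 points on top, Il4ra and Folr2 have them below, and the Arg1 points differ by replicate number.

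The AAV-Shisa3 samples lay above the controls without overlap in 3 of the 8 members tested, against 18.2% of all genes, and below them in 3 (Il4ra, Folr2 and Mrc1, the last with 71.21 against 71.25 TPM as the nearest values), against 41.2%. After centring each sample 2 lay below, where the share of all genes was not counted. Tgm2 and Il4ra changed places in the order of levels. With AAV-GFP the order was Folr2, Il4ra, Tgm2, Mrc1, Chil3, then Arg1 and Pparg, whose values overlapped, then Clec10a and Mgl2. With AAV-Shisa3 Tgm2 stood before Il4ra, and Mrc1 and Chil3 overlapped, at 56.90 to 71.21 and 48.10 to 60.51 TPM.

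The LPS and AAV experiments had no sample in common, and no test was made across them. Tgm2 was higher with LPS at both times and with AAV-Shisa3. Il4ra, with the largest rise under LPS, was lower with AAV-Shisa3. Clec10a was lower at 4 h of LPS and higher with AAV-Shisa3. Pparg was lower at 4 h of LPS, while its AAV-Shisa3 and AAV-GFP values overlapped.

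**Figure D3:**
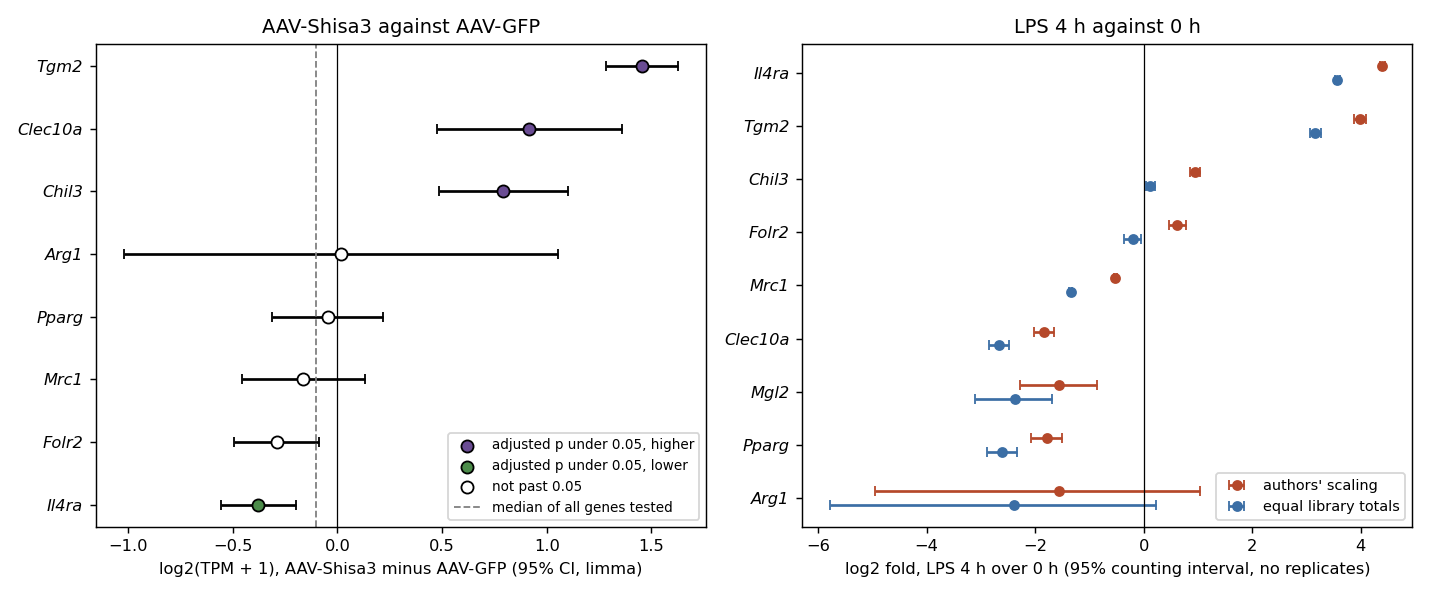
Left, log2(TPM + 1) of AAV-Shisa3 minus AAV-GFP for the 8 members tested, with 95% CI from limma (2 samples per group), filled where adjusted p is under 0.05, and a dashed line at the median of all genes (-0.10). Right, log2 fold of 4 h over 0 h of LPS for 9 members on the authors' scaling and with equal library totals, with 95% counting intervals: Il4ra and Tgm2 lie far to the right in both, and Folr2 changes side with the scaling.

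The control cells of the experiments differed in their M2 marker levels. The tables were normalized separately, with levels of the LPS library computed here and TPM of the AAV table deposited by the authors, so these values are set side by side without a test. Arg1 was at 0.320 TPM in unstimulated BMDMs and at 14.07 and 24.92 TPM with AAV-GFP. Folr2 was at 44.8 TPM against 475.19 and 439.54 TPM, and Tgm2 at 23.1 TPM against 113.85 and 114.18 TPM. Il4ra was at 87.2 TPM against 268.63 and 280.92 TPM. In the other direction, Mrc1 was at 396 TPM against 71.25 and 71.55 TPM, Chil3 at 131 TPM against 31.19 and 30.26 TPM, and Clec10a at 46.2 TPM against 2.20 and 1.73 TPM. Pparg was close, at 20.4 TPM against 18.00 and 17.31 TPM. The macrophage markers Adgre1 and Csf1r were at 1182 and 1788 TPM in unstimulated BMDMs, against AAV-GFP means 2.43 and 0.873 times as high. Some other listed macrophage markers differed more. Marco was at 2.37 TPM against 1588.75 and 1463.29 TPM, Spi1 at 185 against 1103.38 and 1013.25, and Fcgr1 at 123 against 1127.30 and 1005.05. Like Csf1r, Lyz2 (40863 TPM against 28488.80 and 26377.65) and Cd68 (1355 against 1286.52 and 1126.56) were lower with AAV-GFP. Differences between the control cells were therefore not confined to the M2 markers. Transduction, culture time, library and program cannot be told apart as sources of these differences.

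**Figure D4:**
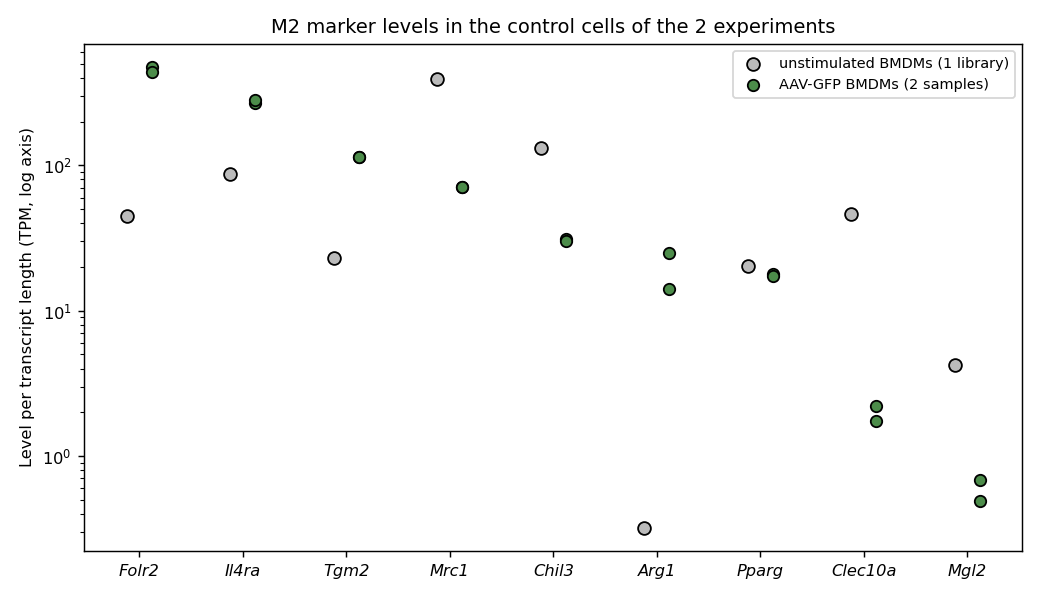
Level per transcript length (TPM, log axis) of 9 M2 markers in unstimulated BMDMs (grey, 1 library, computed from reads) and in AAV-GFP BMDMs (green, 2 samples, as deposited). Folr2, Il4ra, Tgm2 and Arg1 are higher in the AAV-GFP cells, Mrc1, Chil3, Clec10a and Mgl2 in the unstimulated cells, and Pparg is nearly level.

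The pathway upstream of the M2 markers was described with a list of 16 genes of the IL-4 receptor, its kinases, STAT6 and their inhibitors. In the AAV comparison 11 were tested, of which 1 was higher and 1 lower (2.23% and 4.1% of all genes), with a median log2 difference of -0.02. Beside Il4ra, the call was Socs1, an inhibitor of JAK kinases, which rose to 16.19 and 16.71 TPM from control values of 8.18 and 9.56 (0.83, adjusted p = 0.0263 from limma). Stat6 was at 128.00 and 136.34 TPM in AAV-Shisa3 cells against 136.94 and 152.35 TPM in the controls, and the common gamma chain Il2rg at 207.26 and 202.85 TPM against 195.34 and 193.28 TPM, without passing. Il4 was listed at 0 in 3 samples and at 0.20 TPM in AAV-Shisa3 replicate 2, and Il13 at 0 in all 4, so RNA for either ligand was at or near 0 in the transduced cells. With LPS 13 of the genes passed the filter. At 4 h 9 of these were at least 2-fold higher (22.2% of all genes) and 1 lower (23.6%), with a median of 1.42 against -0.04 over all genes. The LPS counts of this list and of the lists below are on the authors' scale. They were not redone with equal library totals or centring, which moved the calls over all genes. Socs1 was the largest rise, with 38, 2595 and 3969 reads at 0, 2 and 4 h, and Stat6 had the lowest difference among genes whose mean reached 10, at -0.40 at 4 h.

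The list of 15 transcription regulators of the M2 state held 1 gene called higher and 0 called lower among 13 tested in the AAV comparison, beside 2.23% and 4.1% of all genes. Cebpb, a factor that acts in both inflammatory and M2 programs, rose to 404.94 and 460.80 TPM from control values of 297.84 and 322.78 (0.48, adjusted p = 0.0422 from limma). The median of the list was -0.09. Rxra, the partner of PPARγ on DNA, was at 17.28 and 22.43 TPM in AAV-Shisa3 cells against 25.44 and 31.11 TPM in the controls, without passing (adjusted p = 0.121). With LPS, Rxra had 2229 reads at 0 h, 251 at 2 h and 212 at 4 h. It was the largest fall of the list at 4 h, at -3.63. Cebpb was the largest rise at 4 h, at 3.28. Of the 15 genes, 4 were at least 2-fold higher at 4 h, near the 22.2% of all genes, and 6 were lower, beside 23.6%.

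Of 28 other genes associated with M2 macrophages, 17 were tested with AAV and 6 were higher (2.23% of all genes tested) and 0 lower (4.1%), with a median of 0.15. With the unadjusted p of limma under 0.05 there were 7 and 2, beside 921 and 2216 of all 11218 genes. The 6 were Ccl24, Vegfa, Stab1, Il10, Igf1 and F13a1. Ccl24, an eosinophil-attracting chemokine, rose to 4.72 and 7.14 TPM from control values of 0.47 and 1.75 (1.76, adjusted p = 0.0435). Vegfa, the vascular growth factor, had 1.64 (adjusted p = 0.0113), with 19.01 and 20.77 TPM in AAV-Shisa3 cells against 5.39 and 5.97 TPM in the controls. With LPS, Il1rn, the IL-1 receptor antagonist, was the largest rise of this list at 4 h (8.51), while Vegfa was its largest fall (-2.16).

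For comparison, 17 of 20 listed classical (M1) markers were tested with AAV, and 7 were higher (2.23% of all genes) and 0 lower, with a median of 0.66. With the unadjusted p of limma under 0.05 there were 10 and 0, beside the same 921 and 2216 of all genes. Cxcl10, an interferon-induced chemokine, rose most (2.08, adjusted p = 0.0142), before Il1b (1.65, adjusted p = 0.0361). With LPS 18 of the 20 were at least 2-fold higher at 4 h and the median was 7.25. Nos2, the inducible nitric oxide synthase, had 9 reads at 0 h and 94656 at 4 h. Of 10 macrophage markers all were tested with AAV, and 1, the LPS co-receptor Cd14, was higher (0.78, adjusted p = 0.0153) and 0 were lower, beside 2.23% and 4.1% of all genes, with a median of -0.08. Of 8 fibroblast markers 3 were tested and 0 passed, with a median of -0.28, and none of the 8 T, B and NK cell markers entered the test. With LPS at 4 h, 4 of 10 macrophage markers were at least 2-fold higher and 0 lower, and 0 of 12 neutrophil markers were higher and 2 lower. The same counts were 2 and 2 of 8 for dendritic cells, 3 and 0 of 7 for eosinophils, basophils and mast cells, and 2 and 0 of 8 for fibroblasts, beside 22.2% higher and 23.6% lower over all genes. The AAV calls in these lists, like those of the members, were all lost without the trend and with no filter on low values. Ccl24 was also lost with a pseudocount of 0.1 and with at least 1 TPM in every sample. With 1 sample left out, Cxcl10 held without AAV-Shisa3 replicate 1, Cxcl10, Camp and Ngp held without AAV-Shisa3 replicate 2, and none held without AAV-GFP replicate 1 or 2.

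**Figure D5:**
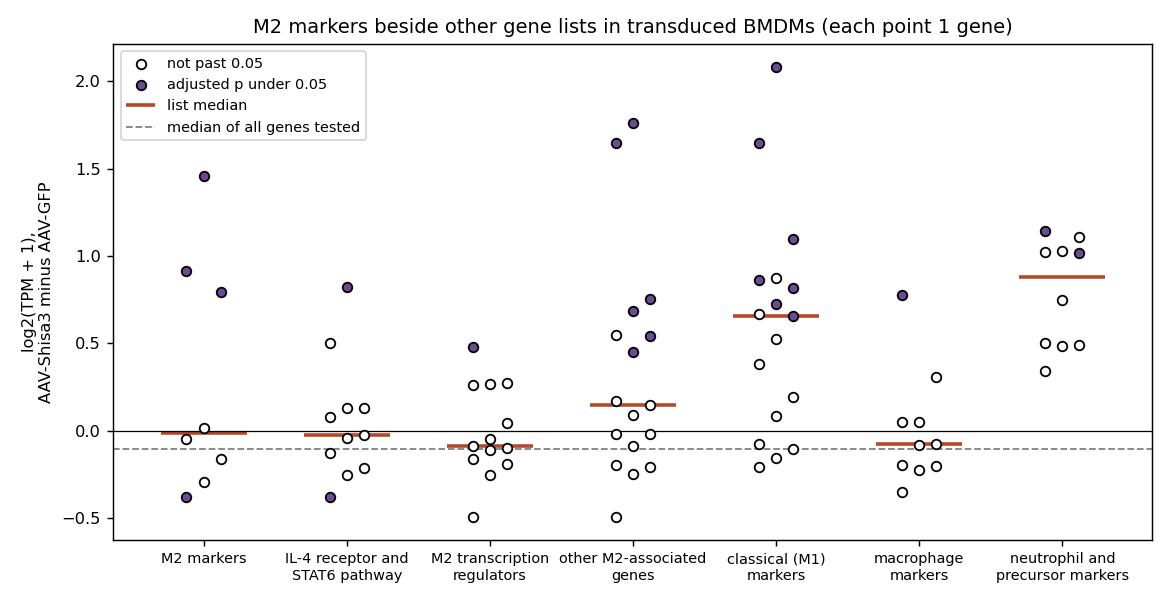
log2(TPM + 1) of AAV-Shisa3 minus AAV-GFP for each gene tested in 7 lists (1 point per gene, filled where the adjusted p from limma is under 0.05), with the list median in red and the median of all genes (-0.10) dashed. The M2 markers spread from -0.38 to 1.46 around a median of -0.01, the classical markers have a median of 0.66 and the neutrophil markers one of 0.88.

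The gene with the most similar pattern to each member was sought over 10545 genes in both tables, as the smallest distance in 3 log2 differences (LPS at 2 h, LPS at 4 h, AAV-Shisa3 against AAV-GFP). For Tgm2 this was Il1f9, an IL-1 family cytokine, at a distance of 0.37, with 4.20, 4.14 and 1.13 where Tgm2 had 4.29, 3.99 and 1.46. For Il4ra it was Camkk1, a calmodulin-dependent kinase kinase, at 0.22. Chil3 was nearest to Hsd17b14 (0.21), Clec10a to 2010001A14Rik (0.21), Pparg to Fbf1 (0.07), Mrc1 to Gm8451 (0.05) and Folr2 to Ttc1 (0.03). For Arg1 it was Slc35c1 (0.11), but the LPS values of Arg1 rest on 5 reads or fewer. Small distances are easily reached near 0, where most genes lie.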

How the data were processed

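The members and gene lists were chosen with earlier results of these data known. The LPS table that the authors deposited holds a signal, read as gene counts over a size factor of each library. This was inferred from the values: 100% lay within 0.01 reads of a whole multiple of the library's lowest value, with a wider tolerance in proportion for high counts. The AAV table that the authors deposited was read as TPM, since its samples sum to between 999778 and 999818. The submitters' processing notes name the build mm9, and the aligner, counting program and annotation are not given in the sources used here. Depth of the AAV samples is unknown, and LPS reads summed to 15588502 (0 h), 7263258 (2 h) and 32659392 (4 h).

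AAV values were compared with limma 3.58.1 in R 4.3.3 (trend, Benjamini-Hochberg, log2(TPM + 1), mean of at least 1). The fold is understated for low genes. LPS folds used log2(value + 1) without a test. Ratios of reads have exact conditional binomial intervals and shares Wilson intervals, at 95%, which cover counting error only. Limits for 0 reads used 3 reads. Exon lengths came from GENCODE M21, which matched 99.2% of identifiers. Named genes were the 10 members, Shisa3, and from each list the largest changes past the threshold (for LPS the largest rise and fall with a mean of at least 10). Il2rg, Il4, Il13, Ly6g, Cxcr2, Chil4, the dendritic, T, B and NK cell markers, Adgre1, Csf1r, the other called M2-associated genes (Stab1, Il10, Igf1, F13a1) and the AAV values of Stat6 and Rxra were added after their values were seen. So were Cd68, Fcgr1, Lyz2, Marco, Spi1, S100a8, S100a9 and Ccr3. Alternatives were limma without trend, centring on medians, other filters and pseudocounts (0.1 and 5), the replicate number as a block, leaving out each sample, and library totals or edgeR 4.0.16 TMM factors for the LPS reads. Python 3.11.15 was used for the rest.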

Additional observations from a re-analysis of the deposited data

How the results depend on the processing

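The calls among transduced samples depended on the settings of the fit and on single samples. The 3 higher and 1 lower members became 0 and 0 without the trend and 0 and 0 with no filter on low values (with 3 and 2 at an unadjusted p under 0.05 in limma in both fits), and 3 and 0 (unadjusted 3 and 1) after centring each sample. Over all 11218 genes the unadjusted counts were 811 and 2148 without the trend, and 1650 and 1182 after centring. Leaving out 1 sample gave 0 to 1 higher and 0 lower, against 3 and 1 to 3 at an unadjusted p under 0.05. The calls over all genes, 250 and 460, were 1 and 4 without the trend, 0 and 0 with no filter (unadjusted 1118 and 2411), and 0 to 27 and 0 to 7 with 1 sample left out (unadjusted 616 to 798 and 1263 to 1712), where the lone sample is assumed to vary like the other group. With the replicate number as a block (replicate block) 3 were higher and 2 lower, as Folr2 passed (adjusted p = 0.0419 from limma), and the calls over all genes were 424 and 851. The block also changed calls in the lists. Higher and lower were 5 and 0 of 10 neutrophil markers, 9 and 0 of 17 classical markers and 7 and 1 of 17 other M2-associated genes. They were 2 and 1 of 10 macrophage markers and 1 and 1 of 13 transcription regulators. The difference of Arg1 stayed at 0.02 with a standard error of 0.12 in place of 0.42. The deviations of same-numbered samples correlated at 0.188 across genes, but with 2 pairs and no label for the numbers this does not show a pairing. Members without overlap between groups numbered 3 above and 2 below after centring. The share of all genes was not counted under this setting, so these counts have no background. The log2 difference of Pparg turned to 0.070 with centring and to 0.032 without AAV-Shisa3 replicate 2 (range -0.12 to 0.032 with 1 sample left out), and that of Arg1 to -0.37 without AAV-GFP replicate 1 and -0.56 without AAV-Shisa3 replicate 2 (range -0.56 to 0.60). The cause of these changes was not tested.

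For LPS at 2 h the 1 member lower by at least 2-fold, Arg1, was 0 with a pseudocount of 5 and 0 with a mean of at least 5, and became 3 with equal library totals, as Mgl2 and Pparg joined. Between 2 h and 4 h the 1 higher member, also Arg1, was 0 with a pseudocount of 5, 0 with equal library totals and 0 with a mean of at least 5. The all-gene calls between 2 h and 4 h, 3197 higher and 2710 lower, were 1830 and 1551 with a pseudocount of 5, 2110 and 1884 with a mean of at least 5, and 2454 and 3133 with equal library totals. The shallow 2 h library limits Mgl2 and Arg1.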
